A study of Mus musculus with 16 samples.

Results

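The comparison set a high-fat diet against a control diet in mice that all received an antibody against PDGF-CC, and it used every gene measured in inguinal white adipose tissue, a pad of subcutaneous fat in the groin. Its members are 8 of the 16 libraries of the series: 4 from C57BL6/J mice on a high-fat diet with the antibody, and 4 from C57BL6/J mice on a control diet with the antibody. The antibody, AF1447, was injected into the peritoneum every 2 days over 2 weeks from an age of 6 weeks, each dose being 50 mg/kg and its volume 100 µl. Both groups carried this treatment, so they differ by label in diet alone. The other 8 libraries, 4 on each diet without antibody, appear below only beside the values of these members. The sources used here do not give the length or composition of the diets, the time of day of collection or any injection given to the untreated mice. Nor do the labels say that each library is a separate animal, and the p-values therefore reflect only how far these samples spread, which may be partly technical. Libraries are called by diet and by the number in their labels.

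White adipocytes store energy as triglyceride. They take up glucose through the insulin-regulated transporter GLUT4, pass it through glycolysis and the citrate shuttle, and build new fatty acids from it with acetyl-CoA carboxylase and fatty acid synthase, using NADPH from the pentose phosphate pathway and malic enzyme. The transcription factors SREBP-1c and ChREBP drive these enzymes when insulin and carbohydrate are plentiful, and diets rich in fat are known to lower them. PDGF-CC activates the receptor PDGFRA on the adipose progenitor cells that make new adipocytes.

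Values are the authors' normalized counts. Their totals, divided by 1e6, ran from 24.1 to 24.42 in high-fat libraries and from 24.56 to 25.74 in control-diet libraries. Read depth before normalization is unknown. Replicates were close: the median over genes of the SD of log2 values was 0.152 in the high-fat and 0.141 in the control-diet group, beside 0.163 and 0.224 in the groups without antibody. This comparison was chosen as the tighter of the diet comparisons, so its small spread is a condition of that choice and not a finding. Markers of mature fat were present throughout, and the adiponectin gene Adipoq lay between 78010 and 97150 in all 8 libraries. Of the list of mammary and skin epithelium markers, 11 genes, among them Krt5, Krt14 and Epcam, are not in the table used here. Of the haemoglobin and red cell genes, 5 were tested and 0 had even an unadjusted p under 0.05 by limma.

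Skeletal muscle genes were low in all 4 high-fat libraries and high in all 4 control-diet libraries, and they are kept apart from everything that follows. Muscle lies next to the inguinal pad. Over the muscle list the mean log2 value was 3.22, 8.13, 3.86 and 5.94 in high-fat libraries 1 to 4, and 11.98, 11.80, 10.66 and 12.06 in control-diet libraries 1 to 4. The groups did not overlap, with high-fat library 2 nearest to the control-diet group and control-diet library 3 nearest to the high-fat group. Acta1, the skeletal muscle actin (ENSMUSG00000031972, GRCm38 chromosome 8, 123891769 to 123894751), had 102.9, 1756, 752.4 and 302.8 normalized counts on the high-fat diet and 31740, 29060, 5982 and 26640 on the control diet. Without antibody the groups overlapped, and the high-fat libraries had means of 7.84, 13.43, 9.56 and 9.37 and the control-diet libraries 9.95, 10.58, 8.48 and 3.58. Of 20 muscle list genes tested 18 were called lower and 0 higher, with a median log2 difference of -6.86, against 2.17 without antibody. Genes whose deviations within groups followed the muscle list over all 16 libraries at r of at least 0.8 joined the list, which gave 114 genes in the table and 91 tested, 84 of them called lower and 0 higher. Because this muscle signal separates the diets completely here, its part in the difference of any gene cannot be told apart from diet by these 8 libraries alone. For that reason the within-group correlation with the muscle score, called r with muscle, is given beside some of the results. So is the diet difference without antibody. The correlations describe 16 libraries that share their normalization. A gene named without these values is not thereby shown to be free of muscle.

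**Figure D1:**
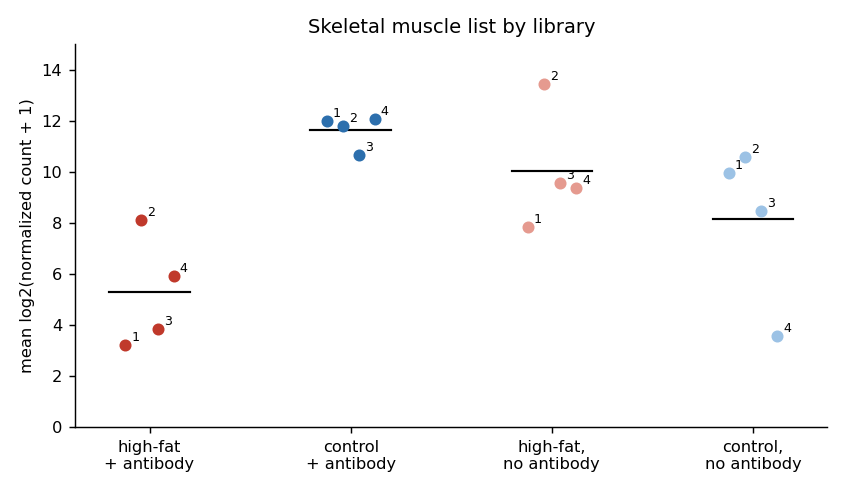
Mean log2(normalized count + 1) of the skeletal muscle list in each library (y axis) by group (x axis), with a bar at the group mean and the library number beside each point. With antibody, the 4 high-fat libraries lie between 3.22 and 8.13 and the 4 control-diet libraries between 10.66 and 12.06, while the groups without antibody overlap.

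Across all genes, falls outnumbered rises. Of 13768 genes tested, 539 passed the threshold of an adjusted p under 0.05 by limma, which is 3.91% of the genes tested. On the high-fat diet 106 were higher (0.77%) and 433 lower (3.14%), and 8 rises and 201 falls were at least 2-fold. An unadjusted p under 0.05 was found for 3360 genes (24.4%), and that count is given below wherever a list had 0 calls. The median log2 difference over all genes was 0.02. The 4 libraries of one diet lay wholly above or below the 4 of the other for 15.4% of the genes tested, and this held for 537 of the 539. With the muscle genes kept apart, 106 of 13677 genes rose (0.775%) and 349 fell (2.55%). A lower bar for muscle, r of at least 0.5, was chosen after the data were seen, because many of the largest falls stood just under 0.8. It left 99 rises and 280 falls among 13078 genes. The split of rises and falls depended on scaling: with libraries scaled to the same total 386 genes were higher and 358 lower, and with quantile normalization 171 and 398. The calls rested in part on control-diet libraries 1 and 2, since 116 genes passed without the first and 72 without the second. By limma 0 passed with the muscle score as a covariate, where 526 had an unadjusted p under 0.05. That score separates the diets completely, so this fit had little diet difference left to test. The SE of Scd1, for example, went from 0.37 to 1.04. Its 0 calls therefore cannot decide the part of muscle. The calls also used the small spread of these 8 libraries, as 1 gene passed when the spread was estimated from all 16.

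The libraries without antibody share no sample with this comparison, and most of the genes moved the same way there. Outside the muscle genes, 270 of 349 falls (77.4%) were also lower on the high-fat diet without antibody, where 47.5% of all genes tested were lower. Of the 106 rises, 101 (95.3%) were also higher, where 52.5% of all genes were higher. Under the lower bar for muscle this was 267 of 280 falls and 94 of 99 rises, where 48.7% of the genes left by that bar were lower. Both bars use r over all 16 libraries, so the libraries without antibody took part in choosing which genes were kept. The higher share of falls under the lower bar is therefore no independent check.

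**Figure D2:**
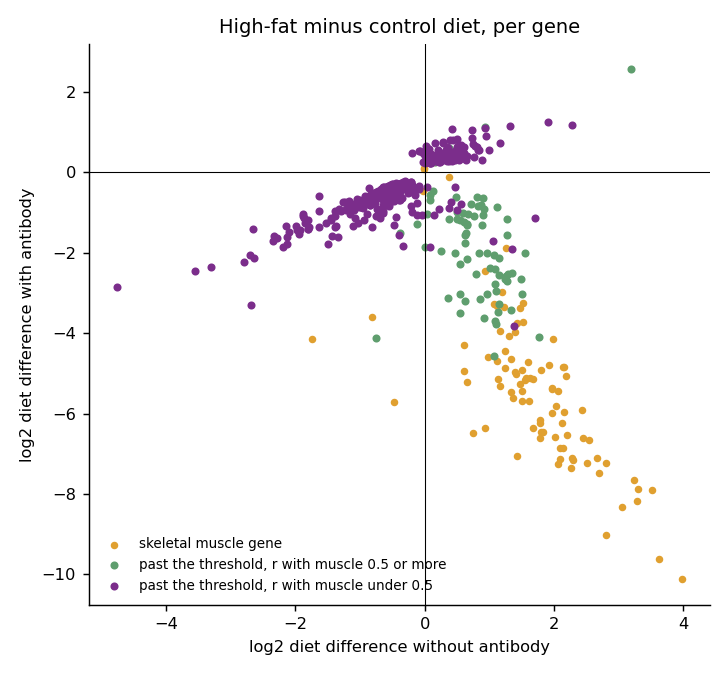
Each point is a gene: the log2 diet difference without antibody (x axis) against the log2 diet difference with antibody (y axis), high-fat minus control. Purple and green points are genes past the threshold with antibody whose r with muscle is under 0.5 or at least 0.5, and orange points are muscle genes. Purple points run from lower left to upper right, and 267 of the 280 falls among them lie left of 0, while most orange and green points lie at the lower right.

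Genes of fatty acid synthesis were among the falls. Falls numbered 9 and rises 0 among its 22 genes, of which 13 missed the threshold and 21 had a negative difference. The list's median log2 difference was -0.74, against 0.02 over all genes, and -1.12 without antibody. Acly, ATP citrate lyase, which makes cytosolic acetyl-CoA from citrate (ENSMUSG00000020917, chromosome 11, 100476353 to 100528000), had 11190, 12560, 11650 and 16340 normalized counts in high-fat libraries and 86260, 78760, 37060 and 38220 in control-diet libraries. The groups were far apart, and control-diet libraries 1 and 2 stood above 3 and 4. Its log2 difference was -2.12 ± 0.28 (SE; limma adjusted p = 0.00525). Fasn, the fatty acid synthase (ENSMUSG00000025153, chromosome 11, 120805846 to 120824547), had 142900, 134000, 121700 and 229300 on the high-fat diet and 694400, 577400, 371500 and 409600 on the control diet. Its groups did not overlap, and the highest high-fat library was number 4. The difference was -1.71 ± 0.29 (limma adjusted p = 0.0136).

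Thrsp, the lipogenic cofactor also called Spot14, and the citrate carrier Slc25a1 fell with them. Thrsp (ENSMUSG00000035686, chromosome 7, 97412938 to 97417730) had 17280, 19040, 15590 and 20330 normalized counts in high-fat libraries and 47150, 52830, 38990 and 35690 in control-diet libraries, a log2 difference of -1.26 ± 0.14 (limma adjusted p = 0.00293). Slc25a1 (ENSMUSG00000003528, chromosome 16, 17925223 to 17928219) had 13340, 12100, 8774 and 13400 on the high-fat diet and 37100, 37840, 24760 and 24570 on the control diet, by -1.37 ± 0.19 (limma adjusted p = 0.0054). Neither gene had overlapping groups. Elovl6, which elongates palmitate, had 2829, 2808, 1354 and 5409 on the high-fat diet and 24810, 19530, 10090 and 10510 on the control diet, the largest fall among the 9 (-2.45 ± 0.41, adjusted p = 0.0136 by limma). The acetyl-CoA synthetase Acss2 fell by 1.49 ± 0.25 on the log2 scale, the acetyl-CoA carboxylase Acaca by 1.43 ± 0.26, malic enzyme Me1 by 1.34 ± 0.23 and the enoyl reductase Tecr by 0.68 ± 0.10. Of these 9, Elovl6, Acss2 and Acaca were picked after their values were seen.

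All 9 showed one order within the control diet, with libraries 1 and 2 both above libraries 3 and 4. That order held for 180 of the 280 falls with r with muscle under 0.5 (64.3%) and for 23.9% of all genes tested. Their r with muscle ran from -0.52 for Slc25a1 to -0.29 for Acss2. Without control-diet library 1 the calls in the list numbered 4, and without control-diet library 2 they numbered 3. Acly, Thrsp and Slc25a1 passed whichever of the 8 libraries was left out, at adjusted p up to 0.0442, 0.0233 and 0.0451 by limma, while Fasn was at 0.0523 and 0.0808 without control-diet libraries 1 and 2.

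Scd1, the stearoyl-CoA desaturase and the gene with the highest value in every library, had 768600, 980300, 911600 and 895400 normalized counts on the high-fat diet and 1658000, 1696000, 1288000 and 1569000 on the control diet. The groups were apart, yet the difference of -0.80 ± 0.37 did not pass (limma adjusted p = 0.22). It passed with a prior variance that had no trend with level (0.0129) or was estimated robustly (0.0225). Of 13 lipogenic regulators 1 fell, Mlx, the partner protein of ChREBP (-0.44 ± 0.09, adjusted p = 0.031 by limma, and up to 0.123 with 1 library left out), and the list's median was -0.21. Mlxipl, which encodes ChREBP, had 4426, 5400, 4358 and 5152 in high-fat libraries, against 8516, 7208, 5491 and 6000 in control-diet libraries, with a difference of -0.48 ± 0.14 (limma adjusted p = 0.0779). Its groups did not overlap, but it missed the threshold. Srebf1, which encodes SREBP-1, overlapped between the diets (-0.48 ± 0.17, adjusted p = 0.128 by limma).

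**Figure D3:**
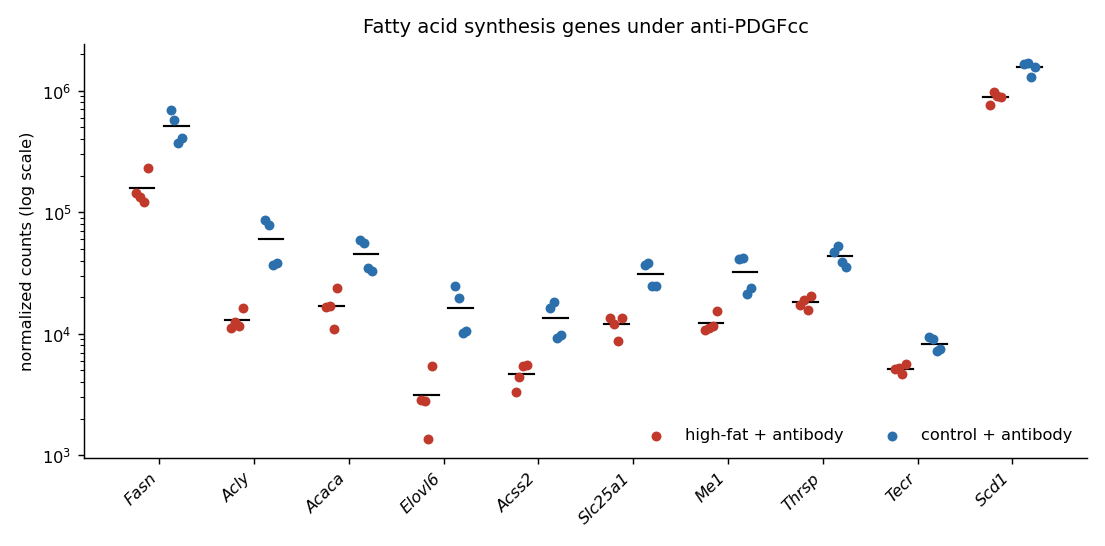
Normalized counts (log scale) of 10 fatty acid synthesis genes in the 4 high-fat libraries (red, left) and 4 control-diet libraries (blue, right), all with antibody, with a bar at the group mean. Every high-fat point lies below every control-diet point of the same gene, and in all 10 genes, Scd1 included, control-diet libraries 1 and 2 lie above 3 and 4.

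The promoters of 3 of the genes that fell together are shown as the stretch of 250 bases before each RefSeq start (GRCm38.p6, all on the minus strand, written 5′ to 3′ on the gene's strand). Capitals mark every match, on either strand, to the sterol regulatory element TCACNCCAC, the E-box CACGTG or the CCAAT box.
Thrsp, chr7:97417551-97417800: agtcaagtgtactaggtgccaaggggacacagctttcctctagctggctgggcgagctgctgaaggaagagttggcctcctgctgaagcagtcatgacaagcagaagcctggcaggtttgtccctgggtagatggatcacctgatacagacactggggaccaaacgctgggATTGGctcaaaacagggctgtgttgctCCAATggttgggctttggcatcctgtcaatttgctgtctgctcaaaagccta
Acly, chr11:100528001-100528250: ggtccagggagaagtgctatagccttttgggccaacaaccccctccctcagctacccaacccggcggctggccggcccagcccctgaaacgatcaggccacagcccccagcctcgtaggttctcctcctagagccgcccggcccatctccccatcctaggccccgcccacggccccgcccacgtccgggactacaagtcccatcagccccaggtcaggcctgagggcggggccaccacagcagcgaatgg
Slc25a1, chr16:17928220-17928469: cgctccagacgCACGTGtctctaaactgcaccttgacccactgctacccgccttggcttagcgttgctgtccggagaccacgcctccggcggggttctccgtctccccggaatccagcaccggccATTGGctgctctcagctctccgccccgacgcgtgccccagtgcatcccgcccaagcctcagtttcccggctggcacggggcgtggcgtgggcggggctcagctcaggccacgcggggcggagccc
The Thrsp window held 2 CCAAT boxes, one on each strand. GENCODE starts this gene further upstream than RefSeq does, so that 180 of the 250 bases and both boxes lie inside the gene by the coordinates given above. The Slc25a1 window held 1 E-box and 1 CCAAT box, and the Acly window held no match to these letters. Of all 9 genes, 6 had a CCAAT box in the window of at least 1 of their promoter entries (Acss2, Fasn, Me1, Slc25a1, Tecr and Thrsp). Of 32851 mouse promoter entries 33.8% held one. The first count is of genes and the second of single entries, so the shares are in unlike units. An E-box stood in 1 of the 9 and in 6.02% of entries, and the sterol regulatory element in 0 of the 9 and in 1.05% of entries. The letters of the 3 motifs do not overlap one another in these windows. A match is a description of letters, not of binding.

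Many genes of glucose use fell. Of 33 genes of glucose, fructose and glycogen handling 20 fell and 0 rose, 31 had a negative difference, and the median was -0.82, against -0.73 without antibody. One of the 20, the muscle glycogen phosphorylase Pygm, is a muscle gene by the rule above, and the phosphofructokinase Pfkm had an r with muscle of 0.56. Slc2a4, which encodes GLUT4 (ENSMUSG00000018566, chromosome 11, 69942539 to 69948188), had 6326, 7003, 6407 and 6672 normalized counts on the high-fat diet and 10680, 10670, 8863 and 9014 on the control diet. The high-fat libraries were tightly grouped below all control-diet libraries, and the log2 difference was -0.57 ± 0.08 (limma adjusted p = 0.00613). Slc2a5, the fructose transporter, had 147.2, 100.8, 33.49 and 236.2 on the high-fat diet and 1268, 976.9, 520.2 and 509.7 on the control diet (-2.85 ± 0.54, adjusted p = 0.0216 by limma), and it passed in 5 of the 8 fits that left out 1 library (up to 0.103).

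Hk2, the insulin-regulated hexokinase, fell, with 4671, 4240, 4723 and 4435 normalized counts in high-fat libraries, against 8178, 7605, 5989 and 7387 in control-diet libraries (-0.68 ± 0.09, adjusted p = 0.0054 by limma). Its groups were apart. Lower down glycolysis the pyruvate kinase Pkm fell by 1.34 ± 0.23 and Pdhb, a subunit of pyruvate dehydrogenase, by 1.18 ± 0.21. Pkm and Pfkm share exon sequence with another gene on the same strand, so their values are uncertain to that extent.

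Glycogen genes fell on both the building and the breakdown side. Ppp1r3b and Ppp1r3c encode subunits that target protein phosphatase 1 to glycogen. Ppp1r3b (ENSMUSG00000046794, chromosome 8, 35375739 to 35388139) had 1493, 1344, 1232 and 832.4 normalized counts on the high-fat diet and 6638, 6140, 3459 and 4423 on the control diet (-2.06 ± 0.23, limma adjusted p = 0.00295). Ppp1r3c (ENSMUSG00000067279, chromosome 19, 36731731 to 36736653) had 907.2, 640.3, 795.7 and 732.3 on the high-fat diet and 1498, 1816, 1708 and 1570 on the control diet (-1.11 ± 0.11, adjusted p = 0.00195 by limma). The groups of both were apart, and both passed whichever library was left out, as did Hk2 and Slc2a4. Without antibody the difference was -2.70 ± 0.72 for Ppp1r3b but only -0.44 ± 0.38 for Ppp1r3c. Their r with muscle was -0.53 and -0.23. The branching enzyme Gbe1 fell by 0.93 ± 0.15 and the UDP-glucose pyrophosphorylase Ugp2 by 0.51 ± 0.09, and the glycogen phosphorylase Pygl fell by 1.09 ± 0.18. Among fructose genes the ketohexokinase Khk fell by 0.46 ± 0.11 (limma adjusted p = 0.0442), and it passed in 2 of the 8 fits that left out 1 library (up to 0.14).

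The pentose phosphate and NADPH list of 9 genes had 4 falls and 0 rises, with a median of -0.41. Tkt, the transketolase (ENSMUSG00000021957, chromosome 14, 30548359 to 30574720), had 24420, 19110, 14540 and 32550 normalized counts on the high-fat diet and 81490, 78830, 49130 and 50380 on the control diet, a difference of -1.54 ± 0.26 (limma adjusted p = 0.0136). Its groups were apart, with high-fat library 4 the highest of its group. The transaldolase Taldo1 fell by 0.67 ± 0.12, Pgd, which makes NADPH from 6-phosphogluconate, by 0.70 ± 0.16, and Me1, counted above, is also on this list. The glucose list gave 11 calls without control-diet library 1, 6 without control-diet library 2 and 14 without high-fat library 2. All 4 pentose phosphate calls were lost without control-diet library 1 or 2, and 2 calls were made without high-fat library 2.

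**Figure D4:**
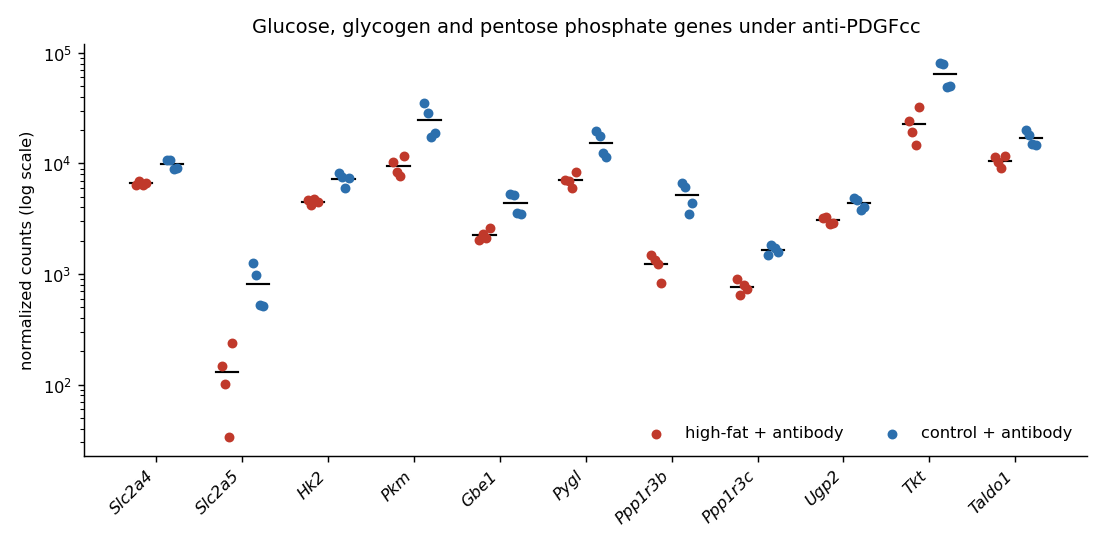
Normalized counts (log scale) of 11 genes of glucose uptake, glycolysis, glycogen and the pentose phosphate pathway, with high-fat libraries in red on the left and control-diet libraries in blue on the right, all with antibody, and a bar at each group mean. In each gene shown the 4 high-fat points lie below the 4 control-diet points.

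Few genes of triglyceride storage and breakdown passed. Of all genes tested 3.91% passed, and at that share lists of this size would also hold few calls. None of 16 triglyceride synthesis genes passed by limma (5 at an unadjusted p under 0.05, median -0.20), and Dgat1, which makes triglyceride from diacylglycerol, had 7474, 6847, 6378 and 7329 normalized counts in high-fat libraries, against 9023, 8305, 8259 and 8343 in control-diet libraries (-0.28 ± 0.07, limma adjusted p = 0.0555). Its groups were apart without passing the threshold. Of 13 lipid droplet genes 1 was called lower, Fitm1, which is a muscle gene by the rule above, and 8 (61.5%) had an unadjusted p under 0.05. Plin4, a droplet coat protein, was at 0.60 ± 0.18 (limma adjusted p = 0.0891). None of 17 lipolysis genes passed by limma (4 unadjusted, median -0.01), and Aqp7, the glycerol channel, was at 0.39 ± 0.10 (adjusted p = 0.0562). Of 17 fatty acid uptake genes 1 rose. This was Angptl4, a secreted inhibitor of lipoprotein lipase (ENSMUSG00000002289, chromosome 17, 33773750 to 33781830), with 13530, 13370, 12690 and 19850 on the high-fat diet and 8308, 6187, 9928 and 8212 on the control diet (0.86 ± 0.17, limma adjusted p = 0.0261). It lost its call without control-diet library 1 (0.082), 2 (0.0939) or 4 (0.0534). The fatty acid transporter Cd36 had 102500, 106700, 119200 and 123400 on the high-fat diet and 89690, 87880, 82800 and 87820 on the control diet, so the groups were apart but the difference of 0.37 ± 0.12 did not pass (adjusted p = 0.109).

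Mitochondrial genes had small negative differences across whole lists, of which few passed. All 30 oxidative phosphorylation genes were negative, with a median of -0.54, and 3 fell, all subunits of complex I: Ndufa2 (-0.55 ± 0.10, limma adjusted p = 0.0157), Ndufv2 (-0.65 ± 0.13, 0.0241) and Ndufs3 (-0.54 ± 0.11, 0.0268). Groups were apart for 22 of the 30, beside 15.4% of all genes tested. Ndufa2 had 2704, 2548, 1973 and 2142 normalized counts on the high-fat diet and 3496, 3330, 3397 and 3384 on the control diet. All 25 mitochondrial ribosome genes were negative too (median -0.28), and Mrps7, Mrpl12, Mrps18a and Mrpl17 fell, by 0.29 to 0.58 on the log2 scale. Of 18 citric acid cycle genes 1 fell, the cytosolic malate dehydrogenase Mdh1 of the malate shuttle (-0.36 ± 0.08, limma adjusted p = 0.0433), which passed in 1 of the 8 fits that left out 1 library (up to 0.152). None of 25 fatty acid oxidation genes passed by limma (7 unadjusted, median -0.29), and Cpt1a, which gates entry of fatty acids into mitochondria, was at 0.59 ± 0.15 (adjusted p = 0.056) with its groups apart. Without antibody the medians were -0.79 for oxidative phosphorylation, -0.39 for the mitochondrial ribosome and -0.68 for fatty acid oxidation. Without control-diet library 1 or 2 all 3 complex I and all 4 ribosome calls were lost, and without high-fat library 1 each of these lists gave 7 calls.

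**Figure D5:**
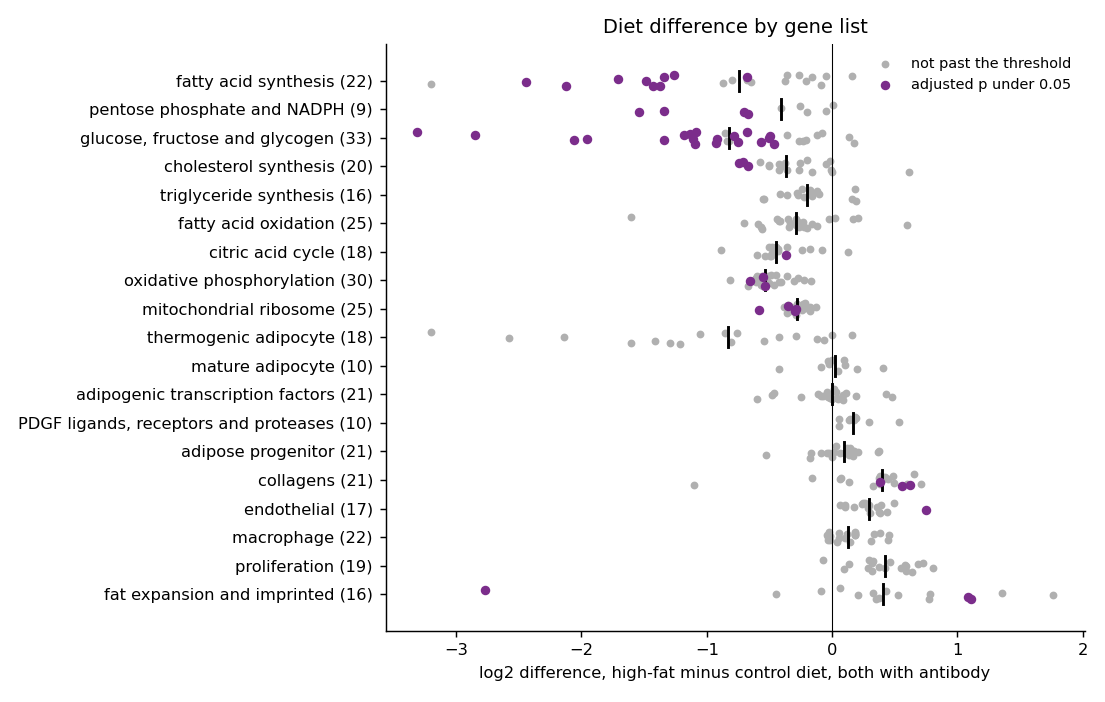
Each point is the log2 difference of 1 gene, high-fat minus control diet with antibody (x axis), by gene list (y axis, number of genes tested in parentheses). Purple points passed an adjusted p under 0.05, black bars are list medians and muscle genes are not drawn. Glucose genes hold more purple points than any other list drawn, and the medians of oxidative phosphorylation, -0.54, and collagens, 0.40, lie on opposite sides of 0.

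Thermogenic genes gave no call. None of 18 passed by limma (6 at an unadjusted p under 0.05), while 16 were negative and the median was -0.83 (-1.41 without antibody). Ucp1, the uncoupler that makes heat in brown and beige fat (ENSMUSG00000031710, chromosome 8, 83290352 to 83298452), had 6111, 835, 47.92 and 4978 normalized counts on the high-fat diet and 25010, 7723, 4505 and 1810 on the control diet. The groups overlapped and each spanned more than an order of magnitude, and the difference was -2.58 ± 1.42 (limma adjusted p = 0.294). Cidea, a lipid droplet protein of brown and beige fat, had 4140, 2290, 201.1 and 4697 in high-fat libraries, against 15440, 7966, 5823 and 4710 in control-diet libraries (-2.14 ± 0.89, adjusted p = 0.18 by limma). High-fat library 3 was the lowest for both. In bulk tissue fewer cells of a type and less RNA per cell cannot be told apart.

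Of 20 cholesterol synthesis genes 3 fell and 0 rose (median -0.37). The squalene synthase Fdft1 fell by 0.67 ± 0.12 (limma adjusted p = 0.0174), the phosphomevalonate kinase Pmvk by 0.71 ± 0.16 (0.0409) and the farnesyl diphosphate synthase Fdps by 0.75 ± 0.18 (0.048). Hmgcs1, the synthase that feeds the pathway, differed in sign, with 7547, 7948, 9498 and 6465 normalized counts on the high-fat diet and 6881, 4248, 3815 and 5968 on the control diet. Its groups overlapped and the difference of 0.62 ± 0.19 did not pass (limma adjusted p = 0.0926). All 3 calls were lost without control-diet library 1 or 2. None of 17 genes of branched-chain amino acid breakdown passed by limma (5 unadjusted, median -0.15).

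Genes that define adipocytes and drive their formation did not pass. Of 21 adipogenic transcription factors 0 passed by limma (3 at an unadjusted p under 0.05) and the median was 0.000287. Pparg, the master regulator of adipocytes, had 7625, 8437, 7483 and 4684 normalized counts on the high-fat diet and 7922, 8404, 5278 and 8163 on the control diet (-0.09 ± 0.20, adjusted p = 0.826 by limma). Its groups overlapped, with 1 low library in each. Cebpa was at -0.03 ± 0.09 and Adipoq at 0.10 ± 0.12. Of 10 mature adipocyte genes 0 passed by limma, and 0 had an unadjusted p under 0.05. The leptin gene Lep had 23020, 32470, 61890 and 20420 on the high-fat diet and 18390, 24180, 20030 and 34730 on the control diet, and it overlapped (0.40 ± 0.33, adjusted p = 0.489). Among 19 adipokines 1 fell, Nampt, which makes NAD precursors (-0.34 ± 0.07, limma adjusted p = 0.0261, and up to 0.113 with 1 library left out). It had 3965, 3995, 3475 and 4116 in high-fat libraries, against 4850, 5256, 4808 and 4779 in control-diet libraries. The insulin receptor gene Insr was at 0.18 ± 0.06 (adjusted p = 0.0963) with its groups apart.

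The ligand that the antibody binds and its partners did not pass with diet. All 10 genes of PDGF ligands, receptors and activating proteases had a positive difference (median 0.17) and 0 passed by limma, with 3 at an unadjusted p under 0.05. Pdgfc (ENSMUSG00000028019, chromosome 3, 81036416 to 81214040) had 701.6, 614.8, 729.3 and 546.5 normalized counts on the high-fat diet and 490.7, 582.5, 650.8 and 626.3 on the control diet (0.14 ± 0.12, adjusted p = 0.489). The receptors Pdgfra (0.13 ± 0.09) and Pdgfrb (0.17 ± 0.10) and the activating protease Plat (0.18 ± 0.10) overlapped between diets. Nrp1, a co-receptor, had 4712, 4836, 5004 and 5673 in high-fat libraries, against 4338, 4290, 4111 and 3722 in control-diet libraries (0.30 ± 0.08, adjusted p = 0.0629 by limma), and its groups were apart. Of 21 adipose progenitor genes 0 passed by limma (2 unadjusted, median 0.10). These values are RNA levels and do not measure the protein that the antibody binds.

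Peg3 and Zim1, neighbours in an imprinted cluster on chromosome 7, rose and did so whichever library was left out. Peg3, a paternally expressed zinc finger gene (ENSMUSG00000002265, 6703892 to 6730431), had 5224, 5397, 6393 and 4884 normalized counts on the high-fat diet and 2517, 2188, 2612 and 2852 on the control diet (1.11 ± 0.10, limma adjusted p = 0.00154). Zim1, a maternally expressed zinc finger gene (ENSMUSG00000002266, 6671269 to 6696450), had 247.6, 232, 218.6 and 281.6 on the high-fat diet and 121.5, 88.42, 140.7 and 113.7 on the control diet (1.08 ± 0.15, adjusted p = 0.0054 by limma). Neither overlapped between diets. Without antibody their differences were 0.94 ± 0.20 and 0.42 ± 0.25. Mest, an imprinted gene that marks expanding fat, had 4967, 12840, 26170 and 7330 in high-fat libraries, against 2750, 2211, 1983 and 7665 in control-diet libraries, so that control-diet library 4 overlapped with the high-fat group (1.76 ± 0.54, adjusted p = 0.0947). The imprinted RNA H19 fell (-2.77 ± 0.47, limma adjusted p = 0.0134, and up to 0.0784 with 1 library left out), but its r with muscle was 0.72 and its difference without antibody was 1.09. Of all 16 genes in the list 2 rose and 1 fell, with a median of 0.40.

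Collagen VI genes were among the few matrix genes that rose. Of 21 collagen genes 3 rose, 0 fell and 19 had a positive difference (median 0.40). Col6a3, a chain of the microfibrillar collagen around adipocytes (ENSMUSG00000048126, chromosome 1, 90765923 to 90843971), had 21290, 17940, 23720 and 24420 normalized counts on the high-fat diet and 14100, 14500, 15280 and 15090 on the control diet (0.56 ± 0.10, limma adjusted p = 0.018). Col6a1 rose by 0.62 ± 0.14 and the collagen V chain Col5a2 by 0.39 ± 0.08, and Col6a2 was at 0.60 ± 0.15 (adjusted p = 0.0561). All 3 calls were lost without high-fat library 4 and without control-diet library 1 or 2, and with libraries scaled to the same total 5 collagens were called higher. None of 34 matrix processing genes passed by limma (9 unadjusted, median 0.20, with 30 positive), among them the collagen crosslinker Lox (0.43 ± 0.11, adjusted p = 0.0656).

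All 17 endothelial genes were positive (median 0.30) and 1 rose. Vwf, the von Willebrand factor of vessel walls (ENSMUSG00000001930, chromosome 6, 125546774 to 125686679), had 1636, 1842, 2529 and 2438 normalized counts on the high-fat diet and 1097, 1089, 1312 and 1468 on the control diet (0.75 ± 0.15, limma adjusted p = 0.0299). It passed in 3 of the 8 fits that left out 1 library, with adjusted p up to 0.123. Pecam1, a junction protein of endothelium, overlapped (0.36 ± 0.11, adjusted p = 0.0929). Of 12 mural cell genes 1 was lower, Des, whose r with muscle was 0.67. Among 19 proliferation genes 18 were positive (median 0.42) and 0 passed by limma, with 11 at an unadjusted p under 0.05. The cyclin Ccna2 had 155.8, 114.5, 148.4 and 110.4 on the high-fat diet and 59.85, 77.05, 61.33 and 108.4 on the control diet, with the groups just apart (0.80 ± 0.21, adjusted p = 0.0623). Of 19 Wnt pathway genes 1 rose, the ligand Wnt5a (0.26 ± 0.06, limma adjusted p = 0.0472), which lost its call whichever library was left out (adjusted p up to 0.158). Of 22 TGF-beta, BMP and activin genes 0 passed by limma (3 unadjusted, median 0.08).

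Calls among immune genes are given by list, beside 3.91% of all genes tested (0.77% higher and 3.14% lower). At that share lists of this size would hold few calls, so the counts are not read as a result about immune genes. Of 22 macrophage genes 0 passed by limma (2 at an unadjusted p under 0.05, median 0.13, against 0.51 without antibody), and Cd68, a lysosomal protein of macrophages, had 2780, 1812, 1886 and 2150 normalized counts on the high-fat diet and 1309, 1373, 1747 and 1885 on the control diet (0.45 ± 0.16, adjusted p = 0.125). Its groups overlapped. None of 18 genes of lipid-associated macrophages, 19 chemokines and cytokines, 11 genes of MHC class II presentation or 10 T and NK cell genes passed by limma, and of these lists 4, 3, 1 and 0 genes had an unadjusted p under 0.05. Of 13 acute phase genes 1 rose, Saa3, the serum amyloid A made in fat, with 149.3, 83.17, 144.6 and 61.73 in high-fat libraries, against 45.85, 44.18, 43.71 and 46.51 in control-diet libraries (1.17 ± 0.27, limma adjusted p = 0.0444). Its groups were apart, though it passed in only 1 of the 8 fits that left out 1 library (adjusted p up to 0.144). Of 16 complement genes Cfb, factor B of the alternative pathway, rose (0.46 ± 0.08, limma adjusted p = 0.0121), with 721.2, 807.7, 811.1 and 731.4 on the high-fat diet and 506.6, 541.4, 588.6 and 592.2 on the control diet. Of 20 interferon response genes Stat2 rose (0.29 ± 0.07, adjusted p = 0.0444), though it passed in 1 of the 8 fits that left out 1 library (up to 0.129). Kit, the receptor of mast cells, fell with 266.5, 332.9, 265.8 and 360.7 in high-fat libraries, against 889.1, 733.5, 403.4 and 530.3 in control-diet libraries (-1.01 ± 0.23, limma adjusted p = 0.041). Cpa3, Cma1 and Mcpt4, the other mast cell genes of the list that were tested, did not pass. Kit passed in 1 of the 8 fits that left out 1 library (adjusted p up to 0.15) and Cfb in 6 (up to 0.0737). Of 3 B cell genes and 11 Schwann cell genes 0 passed by limma (1 and 0 unadjusted), although all 11 of the Schwann cell genes were negative (median -0.18).

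Nr4a1, an immediate early nuclear receptor gene, fell with antibody and had a difference of the other sign without it. Nr4a1 (ENSMUSG00000023034, chromosome 15, 101254269 to 101274795) had 98.56, 136.1, 138.7 and 171.1 normalized counts on the high-fat diet and 242.2, 326.7, 351.5 and 268.8 on the control diet (-1.13 ± 0.18, limma adjusted p = 0.00969). The groups did not overlap. Without antibody its difference was 1.71 ± 0.42. Jun, a subunit of AP-1, fell too (-0.38 ± 0.08, adjusted p = 0.0409), against 0.47 ± 0.15 without antibody. Of the other 17 immediate early genes tested 0 passed by limma (1 at an unadjusted p under 0.05), and the median of all 19 was -0.04, against 0.73 without antibody. There the list's mean log2 value was 8.05, 8.25, 8.96 and 9.48 in high-fat libraries 1 to 4, with libraries 3 and 4 highest. In control-diet libraries 1 to 4 without antibody it was 7.76, 7.80, 7.53 and 7.82. Of 18 clock genes 1 fell, Ciart, a repressor of the clock, with 143.1, 129.2, 114.6 and 159.2 on the high-fat diet and 202.8, 319.5, 327.4 and 252.2 on the control diet (-0.99 ± 0.17, limma adjusted p = 0.0136). Without control-diet library 2 the calls of Nr4a1 (adjusted p = 0.0679) and Ciart (0.0789) were lost, and Jun passed in 1 of the 8 fits that left out 1 library. Hsd11b1, which regenerates active glucocorticoid in fat, had 6088, 7236, 5275 and 7315 on the high-fat diet and 11300, 13510, 10180 and 9595 on the control diet (-0.78 ± 0.13, limma adjusted p = 0.0136, and up to 0.0638 with 1 library left out), and its groups did not overlap. None of 18 heat shock and unfolded protein genes passed by limma (3 unadjusted, median -0.09).

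The acute phase gene Orm3 fell with little spread within either diet. Orm3, an orosomucoid (ENSMUSG00000028359, chromosome 4, 63356162 to 63359511), had 87.02, 84.2, 78.98 and 78.14 normalized counts on the high-fat diet and 235.7, 311.2, 230.5 and 242.9 on the control diet (-1.61 ± 0.12, limma adjusted p = 0.000959). Its groups stood far apart, it passed whichever library was left out, and it was the 1 gene that passed when the spread came from all 16 libraries (adjusted p = 0.0252). Orosomucoid genes are near-identical copies, so reads may have been split among them. Angptl8, a secreted regulator of lipoprotein lipase that responds to feeding, fell by 1.63 ± 0.34 on the log2 scale (limma adjusted p = 0.0333). It had 608.9, 262.3, 285.1 and 238.3 in high-fat libraries, against 913, 1766, 941.5 and 657.5 in control-diet libraries, with high-fat library 1 close to the control-diet group, and it passed in 2 of the 8 fits that left out 1 library (adjusted p up to 0.105).

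Of the 15 largest falls outside the muscle rule, 14 had an r with muscle between 0.63 and 0.80. Among these 14 were Sgca, a sarcoglycan of muscle membranes (-4.57 ± 0.68), Jph2, a junctophilin of the muscle triad (-3.69 ± 0.38), and Xirp1, which binds actin in muscle (-3.04 ± 0.37). Of the 14, Mybpc1 was lower on the high-fat diet without antibody and the other 13 higher there. Among falls with an r under 0.5, large ones not described above were Ttc25 (-2.23 ± 0.43), Tmem52 (-1.91 ± 0.41), Mpzl2 (-1.86 ± 0.38), the calmodulin kinase subunit Camk2b (-1.82 ± 0.23), Lrtm1 (-1.79 ± 0.19), Sec14l5 (-1.70 ± 0.37) and Tmem79. Without antibody Tmem52 (1.36 ± 0.59) and Sec14l5 (1.06 ± 0.52) were higher on the high-fat diet, as most of the muscle-following falls were. Their r with muscle was 0.37 and 0.49. Ttc25, Mpzl2, Camk2b, Lrtm1 and Tmem79 were lower there. Ttc25 had 66.43, 45.98, 28.76 and 89.05 normalized counts on the high-fat diet and 462.3, 351.3, 156.6 and 158.3 on the control diet. Its groups were apart and followed the order of the fatty acid genes. Of the 8 fits that left out 1 library Ttc25 and Mpzl2 passed in 5 (adjusted p up to 0.105 and 0.123), Sec14l5 in 1 (up to 0.11), and Camk2b and Lrtm1 in all 8, while Tmem52 was tested in 4 and passed in 1.

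The largest rise was in Sez6l (ENSMUSG00000058153, chromosome 5, 112419151 to 112577185), known mainly from neurons, with 38.26, 68.52, 152.6 and 41.8 normalized counts on the high-fat diet and 7.54, 6.205, 13.04 and 16.47 on the control diet. The control-diet values are all under the filter of 24.49, so Sez6l was tested only through its 4 high-fat libraries. The groups of a gene admitted this way are apart by construction, so its rank and p depend on the filter. Because the control-diet values are low, the log2 difference of 2.55 ± 0.46 (limma adjusted p = 0.0174) understates the ratio. Without antibody it was 3.19 ± 0.80, and its r with muscle was 0.52. Vnn1, a pantetheinase that responds to PPAR-alpha in liver (ENSMUSG00000037440, chromosome 10, 23894688 to 23905343), had 1914, 1961, 1472 and 1719 in high-fat libraries, against 846.8, 1028, 921.7 and 998.4 in control-diet libraries (0.89 ± 0.10, limma adjusted p = 0.00306). Its groups were apart and it passed whichever library was left out. Bcat1, the cytosolic branched-chain aminotransferase, had 300.2, 343.6, 468.3 and 372.8 on the high-fat diet and 196.3, 194.2, 244.5 and 255.2 on the control diet (0.73 ± 0.15, adjusted p = 0.03 by limma), and its difference without antibody was 1.17 ± 0.21. The remaining rises among the 15 largest were Zfyve28 (1.12 ± 0.24), the calcium pump Atp2a3 (0.82 ± 0.18), Hoxd4 (0.79 ± 0.15), the cytoskeletal gene Shroom3 (0.72 ± 0.15), Map9 (0.67 ± 0.15), Arhgap25 (0.66 ± 0.14) and the ephrin receptor Ephb2 (0.65 ± 0.12). For each of these 7 the groups were apart, but of the 8 fits that left out 1 library Atp2a3, Map9 and Arhgap25 passed in 1, Zfyve28 in 2, Shroom3 in 3, and Hoxd4 and Ephb2 in 4. Their adjusted p reached 0.147 for Atp2a3, 0.137 for Map9, 0.136 for Arhgap25, 0.127 for Zfyve28, 0.113 for Shroom3, 0.0708 for Hoxd4 and 0.0939 for Ephb2. Bcat1 passed in 3 of the 8 (up to 0.123). Sez6l stayed above the filter in 4 of them and passed in 2 (up to 0.0841). Hoxd4 shares exon sequence with another gene on each strand, so its value is uncertain.

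Whether the diet difference depends on the antibody was tested as an interaction over all 16 libraries. Of 14189 genes 0 passed by limma (0%), with a smallest adjusted p of 0.264, and 877 had an unadjusted p under 0.05, of which 100 were muscle genes. The 5 smallest p-values belonged to Nmrk2, a kinase known from muscle, Cnksr1, Nr4a1, Mylk4, a muscle gene by the rule above, and Lysmd4. Nr4a1 had an interaction of -2.84 ± 0.59 on the log2 scale, from -1.13 with antibody and 1.71 without, and Lysmd4 had 0.53 ± 0.12, from 0.35 and -0.18. Without high-fat library 1 of the untreated group, Nr4a1 passed (-3.36 ± 0.40, limma adjusted p = 0.00873). The library left out there had the lowest immediate early list mean of its group. No fatty acid, glucose, mitochondrial or collagen gene passed this test, so no diet difference described here is shown to be particular to mice given the antibody. Among fatty acid synthesis genes the log2 diet difference of Fasn was -1.71 with antibody and -2.35 without, that of Acly -2.12 with and -2.64 without, and that of Elovl6 -2.45 with and -3.54 without, and the unadjusted interaction p-values were 0.268, 0.416 and 0.246.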

How the data were processed

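Poly-A RNA of mouse inguinal fat was sequenced from stranded libraries, after extraction with TRIzol and a lipid tissue kit, per the labels' protocols. The submitters' processing notes name STAR 2.7.0e, fastp 0.20.1, Subread 1.6.2, featureCounts and limma 3.42.2, and the builds GRCm38 and mm10, with no order. The deposited table holds a linear signal, normalized counts by its name, for 16091 genes in 16 libraries. The sources used here do not state the normalization or whether counting used strand. The signal values were not whole numbers, so no count model was run. Of the gene identifiers, 16081 were found in GENCODE vM21 of GRCm38, which gave the coordinates.

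Values were taken as log2(value + 1), which understates the change of low genes. Genes above 24.49, the median column total divided by 1e6, in at least 4 of the 8 libraries were tested, which left out 2323 low genes. A gene over this filter only in the 4 libraries of 1 diet has its groups apart by construction. One mean per group was fitted with limma 3.58.1 in R 4.3.3, with a trended prior variance (residual degrees of freedom 6, prior 3.6), two-sided, with Benjamini-Hochberg adjustment over all genes tested and a threshold of 0.05. Errors after ± are SE. The interaction and the diet difference without antibody came from a fit to all 16 libraries with 1 mean per group. The fit was also run on simulated data with independent normal noise for each gene. Those data held no muscle signal and no effect shared by genes of a library, so the run cannot test the calls against either. The members, the 49 gene lists and the tests were chosen with earlier results of these data known. The text names the 15 largest rises and falls past the threshold outside muscle, up to 4 members of each list by p, 15 genes of set interest (Acta1, Mest, Mlxipl, Srebf1, Scd1, Fasn, Ucp1, Lep, Adipoq, Pparg, Cebpa, Plat, Pdgfrb, Pdgfra and Pdgfc) and the 5 smallest interaction p-values, and some genes of that rule are not reported here. The 15 largest falls with r under 0.5 and other list members were added after values were seen. Of 133 genes with values considered for the text, 20 share exon sequence with a gene on the opposite strand and 3 on the same strand. Promoters come from RefSeq, GRCm38.p6. Alternatives were other pseudocounts, filters, scalings and variance models, a muscle covariate, a replicate block and leaving out each library.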

Additional observations from a re-analysis of the deposited data

Results flagged for a closer look

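In 18 of 266 gene groups looked at (6.77%) 1 library stood far from the other 3 of its group, the gap as a share of the group's range being above Dixon's critical value for 4 samples, which chance alone gives in about 0.05 of groups. Control-diet library 3 was the low one for Acta1 (5982 normalized counts, others from 26640), Neb (1177), Ryr1 (1035), Pygm (1650), Tcap (383.9), Des (1110), Jph2 (203.7), Sh3bgr (79.22) and Rragd (53.01), all of which follow muscle, and for Pparg (5278, others 7922 to 8404). High-fat library 3 was low for H19 (91.33, others 228.2 to 235.1), Ndufv2 (2440) and Agpat1 (2104), and high for Pgd (9736, others 6924 to 6975). High-fat library 4 was high for Angptl4 (19850, others 12690 to 13530). Control-diet library 2 was high for Nampt (5256) and low for Aqp7 (3890), and control-diet library 1 was high for Dgat1 (9023).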

How the results depend on the processing

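The count of 539 genes (106 higher, 433 lower) was within 1.5 times of itself with another pseudocount, other filters, all scalings, a robust prior variance and the muscle genes left out, but the rises were not: they numbered 386 with libraries scaled to the same total and 171 with quantile normalization, and 60 when the prior variance had no trend. The median difference of all genes was 0.0857 with the same total. With the muscle score as a covariate 0 genes passed by limma, 0 higher and 0 lower, and 526 had an unadjusted p under 0.05. The score separates the diets completely, so that fit cannot tell muscle from diet. With the spread of all 16 libraries 1 passed, 0 higher and 1 lower. Leaving out each library in turn gave 72 to 699 genes, 8 to 168 of them higher and 64 to 531 lower. The lowest counts came without control-diet libraries 2 (72) and 1 (116), then high-fat 4 (280), control-diet 3 (306) and high-fat 2 (324), and of these genes 72, 113, 268, 264 and 296 were among the 539. Among alternatives chosen after the data were seen, leaving out genes with r with muscle of at least 0.5 from the test gave 238 genes (49 higher, 189 lower), and leaving out high-fat library 2 and control-diet library 3 together gave 155 (14 higher, 141 lower). The causes were not tested. The replicate numbers of the labels did not pair the libraries, since same-numbered deviations correlated at -0.042, 0.24, 0.15 and -0.27. With the number as a replicate block 365 genes passed, 47 higher and 318 lower, and 1 gene passed the interaction (Nmrk2, limma adjusted p = 0.0206). The interaction also gave 1 gene without untreated high-fat library 1, and between 0 and 1 over all libraries left out.

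Signs that turned were those of genes that had not passed, apart from Saa3 (-0.037 ± 0.53) and Arhgap25 (-0.0264 ± 0.27) with the muscle covariate. With that covariate Pparg was at 0.15 ± 0.51, Mlxipl at 0.0492 ± 0.29, Cd68 at -0.0887 ± 0.35 and Srebf1 at 0.0882 ± 0.38. Pdgfc was at -0.27 ± 0.26, Itgam at -0.11 ± 0.24, Icam1 at -0.16 ± 0.25 and Mmp12 at -2.00 ± 0.96. Most of these signs are uncertain given such wide errors. Pparg was at 0.10 without high-fat library 4 and at -0.24 without control-diet library 3. Cebpa was at 0.0344 with the same total and at 0.0226 without high-fat library 2 and control-diet library 3. With quantile normalization Scd1, the top gene of every library, takes the same value in each and its difference is 0 by construction. Read depth is unknown, so no limit from counting can be given.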
